A study of Mus musculus with 6 samples.

Results

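The cytochrome P450 family was described in kidney RNA of 6 samples, 3 from control mice and 3 from mice with calcium oxalate kidney stones. The members were chosen by symbol alone, as every row of the expression table whose symbol begins with Cyp and a digit, leaving out Cyp51, Cyp24a1 and Cyp27b1, which gave 77 of 17933 genes. All mice were wild-type C57BL/6 males aged 6 to 8 weeks and weighing 24 to 26 g. The stone group received glyoxylic acid, a precursor of oxalate, at 120 mg/kg into the peritoneum daily for 12 days, and the control group received the same volume of saline. The title of the series is about EZH2 and the passage of macrophages into myofibroblasts in fibrosis caused by the crystals. The comparison asked which P450 transcripts differed between stone and control kidneys. The labels do not say that each sample came from a separate mouse, so p-values measure only how much these 6 samples vary, and that variation may be technical.

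P450 enzymes are heme-containing monooxygenases that take electrons from a reductase and place an oxygen atom on lipids, steroids, vitamins and foreign compounds. In the kidney the proximal tubule is the main site of their expression. Epoxygenases of the Cyp2c and Cyp2j subfamilies turn arachidonic acid into epoxides, and omega-hydroxylases of the Cyp4a and Cyp4f subfamilies turn it into hydroxyeicosatetraenoic acids, and both kinds of product act on blood vessels and on salt transport. Other members break down drugs, steroids, oxysterols or retinoic acid. Several renal P450 genes of mice differ between the sexes and respond to androgens, and Cyp4a10 and Cyp4a14 are classical targets of the fatty acid sensor PPAR-alpha.

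Expression was given as FPKM, which are fragments scaled to gene length and to the fragments of the sample. These files carry no counts, so sequencing depth is unknown and no counting interval is given. Across all tested genes the samples correlated at 0.979 to 0.991 within groups and 0.931 to 0.950 across groups (Pearson's r of log2 values, across genes, which are not independent replicates). Of 12 markers of the proximal tubule all were tested, 7 fell, 1 rose and 4 did not pass the test, and their summed level without Kap, the abundant kidney androgen-regulated transcript, ran from 6862 to 7786 FPKM in controls and from 4167 to 5062 FPKM in stone kidneys. Their log2 fold changes ran from -4.54 for the amino acid transporter Slc7a13 and -4.02 for Kap to 0.96 for the lactate transporter Slc5a12. Of all tested genes 13.9% fell and 43.5% rose, the shares beside which the marker counts here are read. In whole tissue, fewer cells of a type and less RNA per cell cannot be told apart. Control sample 2 and stone sample 3 stood apart in markers of fat cells, whose summed level was 506 and 512 FPKM there against 55.3 to 98.7 FPKM in the other 4 samples. Of 11 hepatocyte markers, Cps1 was listed at 0 in every sample and Ahsg did not exceed 0.23 FPKM, but others were clearly present. Ttr averaged 207 FPKM in control and 50.1 FPKM in stone kidneys, Serpina1a 74.2 and 143 FPKM, and Apob 17.4 and 12.3 FPKM. The groups overlapped for Serpina1a and Apob, and neither passed (limma, adjusted p = 0.216 and 0.0812). Alb was low, at 3.98 and 1.31 FPKM. Among 8 tested hepatocyte markers 1 rose, 4 fell and 3 did not pass. The one that rose was Fgb, from 0.593 to 11.4 FPKM on average.

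P450 genes rose and fell in nearly equal numbers. A gene was tested when its mean over the 6 samples was at least 1 FPKM, which 36 of the 77 members reached, and a call means an adjusted p below 0.05 by limma on log2(FPKM + 1) over all 12319 tested genes. Of the 36 tested members 14 were higher and 13 lower in stone kidneys and 9 did not pass. This is 38.9% higher against 43.5% of all tested genes, and 36.1% lower against 13.9% of all tested genes, so that in all 75% were called against 57.4%. When the log2 fold change also had to reach 1 in size, 13 members were called (36.1%, against 9.31% of all tested genes). Of these, 7 members were higher (19.4%, against 7.32% of all tested genes) and 6 were lower (16.7%, against 1.99%). The groups did not overlap for 28 tested members (77.8%, against 66.3%). The median log2 fold change of the tested members was 0.03, beside 0.21 for all tested genes. The tested members were also more abundant, with a median level of 27.3 FPKM beside 11.6 FPKM, and low levels shrink a change on this scale. These shares describe the family and were not tested as a set.

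The split depended on scaling, less for the family than for all genes. Of member calls 51.9% were higher as deposited, 44.4% after median-of-ratios scaling, 42.9% after quantile normalization and 64.3% with equal FPKM sums, while of all calls 75.8%, 46.0%, 46.6% and 91.4% were. These 3 scalings moved the median change over all tested genes by -0.23, -0.24 and 0.24 on the log2 scale, so changes of that size have no settled direction. Equal FPKM sums depend much on Kap, which averaged 155570 of 742342 FPKM in control and 9906 of 611178 FPKM in stone kidneys. With equal FPKM sums outside Kap the median moved by -0.03, and all 27 member calls were kept, 14 higher and 13 lower. Of all calls 71.2% were then higher. The plot of member levels by sample shows the 36 tested genes from 0.3 FPKM for Cyp4f18 in a control to 2391 FPKM for Cyp4b1.

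**Figure D1:**
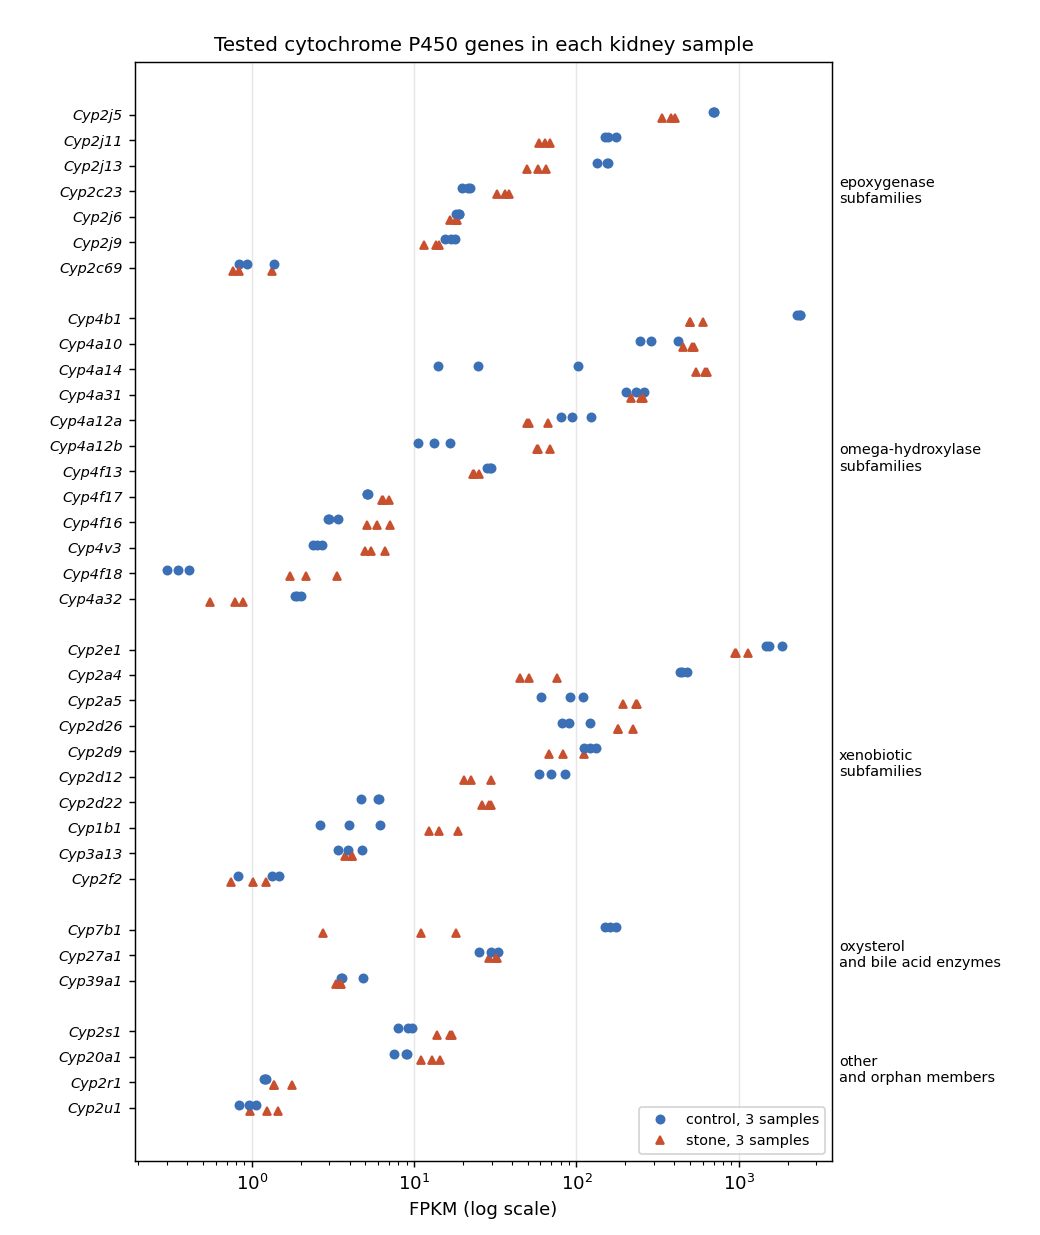
FPKM on a log axis for the 36 tested P450 genes, grouped by role, with circles for the 3 control samples and triangles for the 3 stone samples. The symbols of the groups are apart for 28 of the 36 genes, with stone to the left for genes such as Cyp7b1 and Cyp2a4 and to the right for genes such as Cyp4a14 and Cyp2d22.

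**Figure D2:**
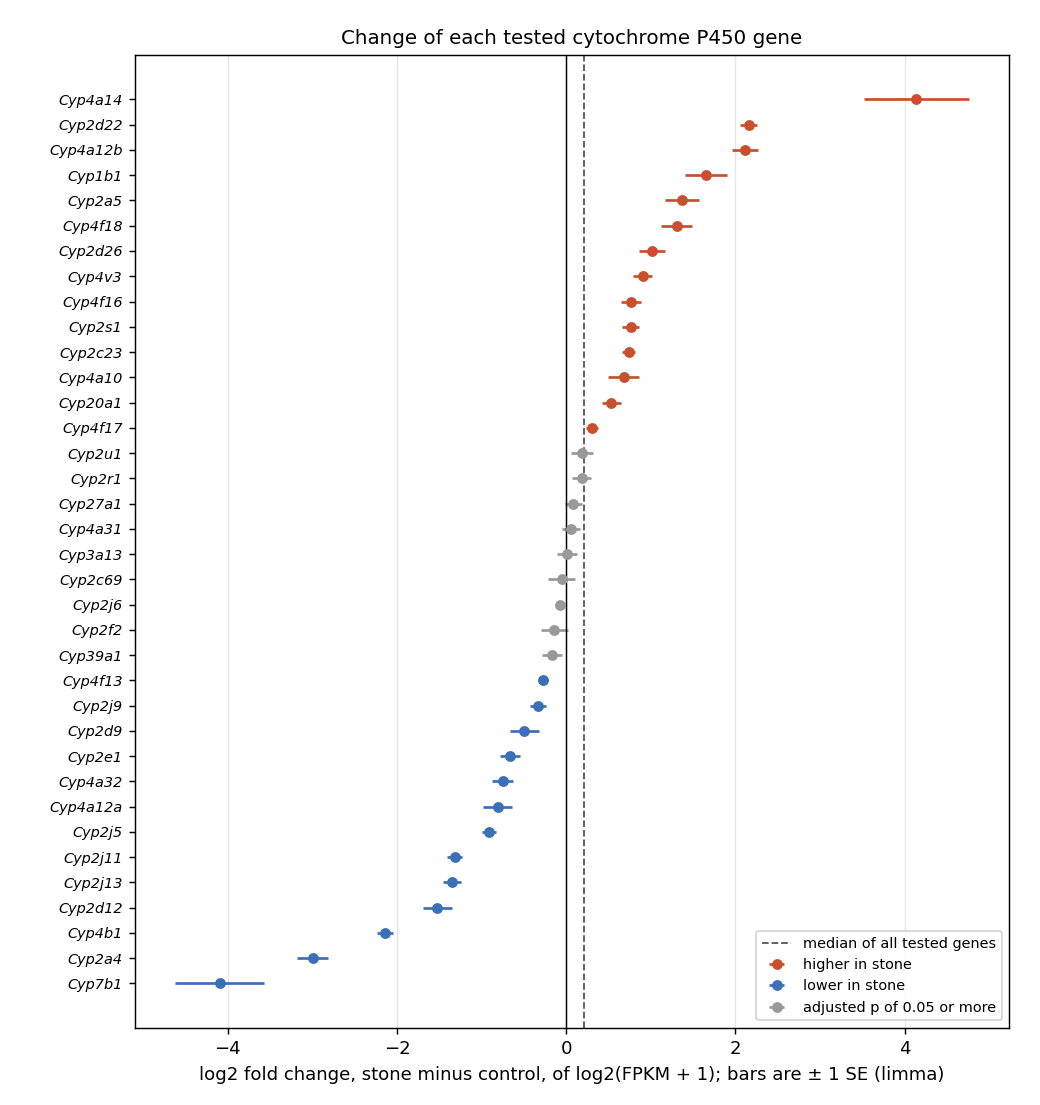
Log2 fold change of each tested member, stone minus control on the log2(FPKM + 1) scale, with bars of 1 SE from limma and a dashed line at 0.21, the median of all tested genes. The values run from -4.10 for Cyp7b1 to 4.14 for Cyp4a14, with 14 called higher, 13 called lower and 9 in grey that did not pass.

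The summed P450 level was lower in stone kidneys and its makeup was different. The 77 members added up to 6683, 7358 and 6537 FPKM across control kidneys 1 to 3, against 4636, 4365 and 3993 FPKM across stone kidneys 1 to 3, so the groups did not overlap. Of all FPKM outside Kap, the family made up 1.17% ± 0.0322 in control and 0.7203% ± 0.05095 in stone kidneys (SD, n = 3 each). FPKM are per length, so these sums weigh each gene by transcripts and not by reads. Of the P450 sum, Cyp4b1 held 34.4% ± 1.67 in control and 12.3% ± 0.828 in stone kidneys. Cyp4a14 held 0.656% ± 0.637 in control and 13.9% ± 0.345 in stone kidneys. Cyp2e1, the ethanol-inducible member, was close in both groups, at 23.6% ± 1.43 and 23.5% ± 1.34. By mean level the order in control kidneys began with Cyp4b1, Cyp2e1, Cyp2j5, Cyp2a4 and Cyp4a10, and in stone kidneys with Cyp2e1, Cyp4a14, Cyp4b1, Cyp4a10 and Cyp2j5. In that order for stone kidneys, Cyp4a14 and Cyp4b1 overlapped between their samples, and so did Cyp4b1 and Cyp4a10. Cyp4a14 went from rank 15 to rank 2 and Cyp7b1 from rank 7 to rank 25.

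**Figure D3:**
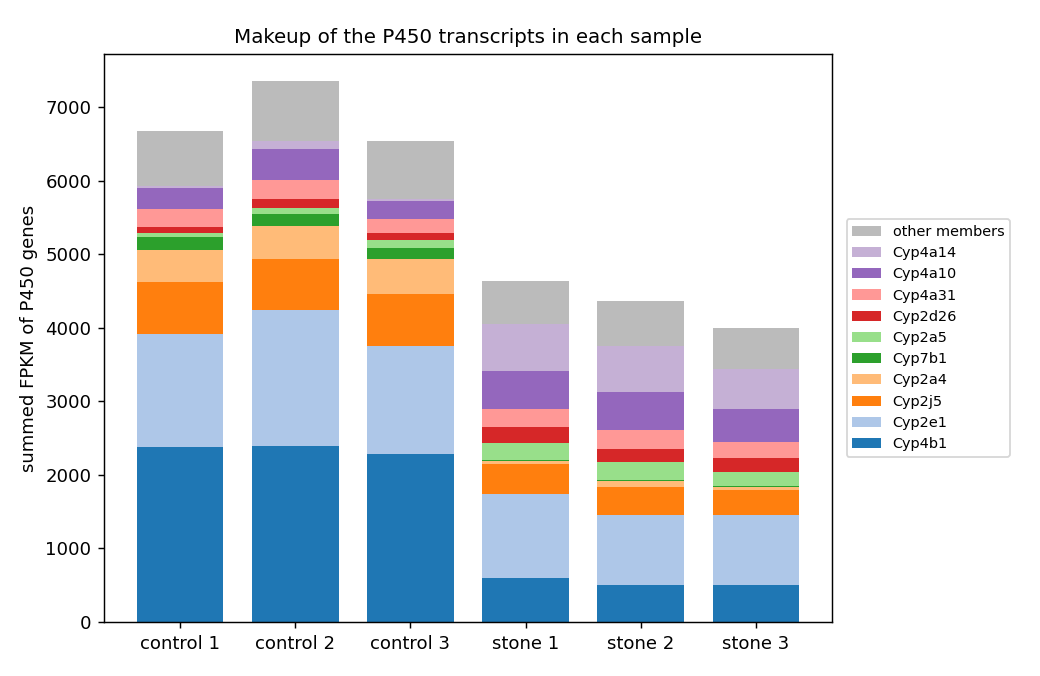
Summed FPKM of all 77 P450 genes in each sample, as stacked bars from 0, with 10 abundant genes in color and all other members in grey. Bars of the 3 stone samples end between 3993 and 4636 FPKM and those of the 3 control samples between 6537 and 7358 FPKM, with a smaller Cyp4b1 part and a larger Cyp4a14 part in stone kidneys.

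Of the tested epoxygenase genes, 4 of the Cyp2j subfamily fell and 1 of the Cyp2c subfamily rose. Of 17 members of the Cyp2c and Cyp2j subfamilies 7 were tested, 4 fell, 1 rose and 2 did not pass. Among all tested genes 13.9% fell and 43.5% rose. Cyp2j5, the main Cyp2j epoxygenase of the proximal tubule, measured 706, 696 and 701 FPKM across control kidneys 1 to 3, against 403, 380.3 and 337 FPKM across stone kidneys 1 to 3. All 3 stone values lay below all 3 control values, and Cyp2j5 fell by 0.91 on the log2 scale (SE 0.07996, limma, adjusted p = 0.000163). Cyp2j11, of the same gene cluster, measured 149, 176 and 156 FPKM across control kidneys 1 to 3, against 64.3, 69.1 and 58.5 FPKM across stone kidneys 1 to 3. Cyp2j13, at the other end of the cluster, measured 156, 134 and 154 FPKM across control kidneys 1 to 3, against 64.7, 58.3 and 49.8 FPKM across stone kidneys 1 to 3. In both genes the groups were apart, and they were 2.51-fold and 2.57-fold lower in stone kidneys by the group means, with log2 fold changes of -1.31 and -1.35 (limma, adjusted p = 5.92e-05 and 0.000111).

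The other 2 tested Cyp2j genes moved less. Cyp2j9 fell by 0.34 on the log2 scale, from 16.8 ± 1.28 to 13.1 ± 1.36 FPKM (SD, n = 3 each, limma, adjusted p = 0.0189), a call that did not hold with equal FPKM sums or without control sample 1, control sample 2 or stone sample 3 (limma, adjusted p = 0.473, 0.0579, 0.0616 and 0.0516). Cyp2j6 did not pass as deposited, at 18.6 ± 0.497 and 17.7 ± 0.905 FPKM (limma, adjusted p = 0.355). It was called lower after median-of-ratios scaling and quantile normalization, at -0.32 and -0.28, and higher with equal FPKM sums, at 0.19, so its direction is unsettled. The 7 Cyp2j genes in the table lie in 1 cluster on chromosome 4 (RefSeq, GRCm38.p6) from 96042660 to 96664171, and their summed level was 1046 ± 2.95 FPKM in control and 526 ± 46.7 FPKM in stone kidneys. Markers of the proximal tubule fell alongside, as given above, and their part in these falls was not tested.

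Cyp2c23 went against the other epoxygenases. This gene, long known as Cyp2c44, encodes an arachidonic acid epoxygenase of the renal tubule, and it measured 19.6, 21.3 and 21.9 FPKM across control kidneys 1 to 3, against 36.1, 38.2 and 32.6 FPKM across stone kidneys 1 to 3. It rose by 0.74 on the log2 scale (SE 0.0788, limma, adjusted p = 0.000356) with groups that did not overlap. Cyp2c69 was near the limit for testing, at 1.05 ± 0.282 and 0.977 ± 0.307 FPKM, and was not called (limma, adjusted p = 0.794). The enzymes that open the epoxides moved in opposite directions as well. Ephx2, the soluble epoxide hydrolase that acts on epoxides of arachidonic acid, fell from 341 ± 7.85 to 172 ± 13.6 FPKM, and Ephx1, the microsomal epoxide hydrolase of foreign compounds, rose from 30.8 ± 4.39 to 70.95 ± 24.9 FPKM (SD, n = 3 each, limma, adjusted p = 8.65e-05 and 0.00513). Ephx3 and Ephx4 were too low to be tested.

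Omega-hydroxylases held the most abundant P450 gene of control kidneys and the largest rise of the family. Of 16 members of the Cyp4a, Cyp4b, Cyp4f and Cyp4v subfamilies 12 were tested, 7 rose, 4 fell and 1 did not pass. Among all tested genes 43.5% rose and 13.9% fell. Cyp4b1 (chromosome 4, 115624698 to 115647721, GRCm38.p6), which hydroxylates fatty acids and activates some plant toxins, measured 2386, 2391 and 2282 FPKM across control kidneys 1 to 3, against 603, 497 and 499 FPKM across stone kidneys 1 to 3. It was 4.42-fold lower in stone kidneys by the group means, with a log2 fold change of -2.15 (SE 0.0949, limma, adjusted p = 1.42e-05). No stone sample came near the controls.

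Cyp4a14 (chromosome 4, 115486200 to 115496158), an omega-hydroxylase of fatty acids, measured 24.7, 102 and 13.9 FPKM across control kidneys 1 to 3, against 633, 623 and 546 FPKM across stone kidneys 1 to 3. Stone values were close together and all above the controls, among which control sample 2 stood well above the others. Cyp4a14 was 12.8-fold higher by the group means, with a log2 fold change of 4.14 (SE 0.621, limma, adjusted p = 0.00146). Without control sample 2 the ratio of the means was 31.1, and leaving out single samples gave log2 fold changes from 3.54 without control sample 3 to 4.94 without control sample 2 (limma, adjusted p = 0.00337 and 0.000184). Control sample 2 is one of the 2 libraries with fat cell markers, and without both of them the log2 fold change was 5.0 (limma, adjusted p = 0.00054). The other, stone sample 3, had the lowest stone value, 546 FPKM. The part of fat cells in the level of Cyp4a14 was not tested. Cyp4a10, its partner among PPAR-alpha targets, measured 287, 422 and 245 FPKM across control kidneys 1 to 3, against 514, 526 and 453 FPKM across stone kidneys 1 to 3, again with control sample 2 the highest control. Its rise of 0.68 (limma, adjusted p = 0.0181) was not called after median-of-ratios scaling or without control sample 1 or stone sample 2 (limma, adjusted p = 0.135, 0.0611 and 0.0565).

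The Cyp4a and Cyp4b genes lie in a row on chromosome 4, and neighbors went different ways. Among the genes of the table, in order along the chromosome, Cyp4a12a fell, Cyp4a12b rose, Cyp4a30b was listed at or near 0, Cyp4a14 and Cyp4a10 rose, Cyp4a31 did not pass, and Cyp4a32 and Cyp4b1 fell. Cyp4a31 was at 232 ± 29.1 and 241 ± 20.7 FPKM (SD, n = 3 each, limma, adjusted p = 0.675), was called higher with equal FPKM sums, at 0.34, and stood at -0.20 after median-of-ratios scaling. Cyp4a32, a gene of low level, fell from 1.92 ± 0.0755 to 0.74 ± 0.171 FPKM (limma, adjusted p = 0.00194), and 20.1% of the 100-base windows of its transcript also occur in transcripts of other genes, mainly Cyp4a10, so its level is uncertain. Cyp4a32 reached the limit for testing only through the control samples, and with no filter it was also called lower (limma, adjusted p = 0.00168). Cyp4a10 shared 12.7% of its windows and Cyp4a14 none. The Cyp4a genes together added up to 712 ± 162 FPKM in control and 1457 ± 114 FPKM in stone kidneys.

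**Figure D4:**
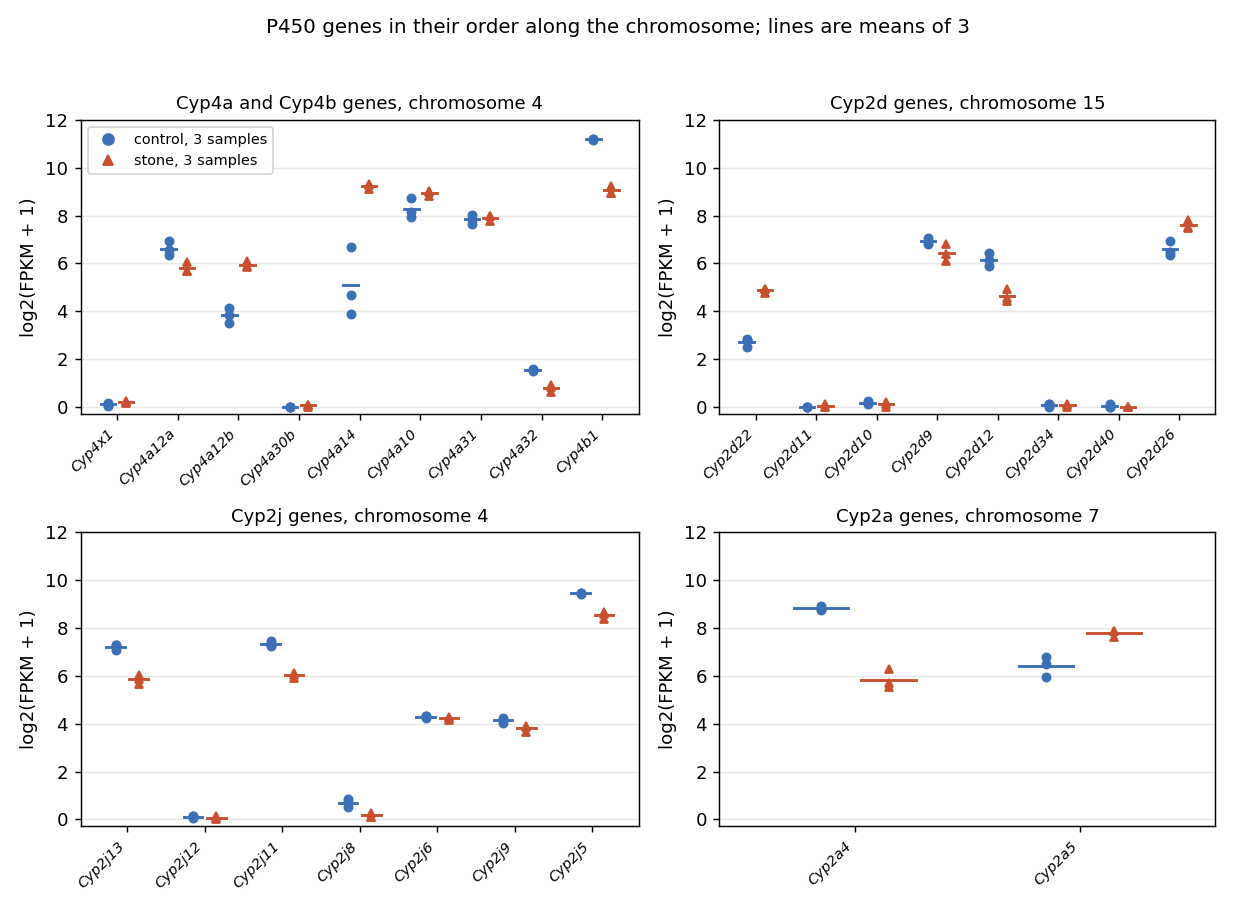
Levels as log2(FPKM + 1) of P450 genes in their order along 4 stretches of the genome, with circles for the 3 control samples, triangles for the 3 stone samples and lines at their means. Within the Cyp4a and Cyp4b, Cyp2d and Cyp2a stretches some genes are higher and others lower in stone kidneys, while in the Cyp2j stretch 4 genes were called lower and none higher as deposited (Cyp2j6 was called higher with equal FPKM sums).

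Cyp4a12a and Cyp4a12b are near-identical copies, 98.5% alike over 1527 coding bases, and went in opposite directions. Cyp4a12a is the male-predominant omega-hydroxylase of the mouse kidney and makes hydroxyeicosatetraenoic acid. The coding bases 661 to 750 of both, from GENCODE M21, are shown because they hold the densest differences, 7 of the 23 in all, which are in capitals.
Cyp4a12a: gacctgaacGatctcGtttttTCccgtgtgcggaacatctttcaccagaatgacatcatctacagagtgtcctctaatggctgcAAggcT
Cyp4a12b: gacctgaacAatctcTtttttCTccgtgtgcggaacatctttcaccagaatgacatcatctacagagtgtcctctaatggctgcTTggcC
Cyp4a12a measured 80.2, 94.5 and 123 FPKM across control kidneys 1 to 3, against 66.5, 49.9 and 51.2 FPKM across stone kidneys 1 to 3. Cyp4a12b measured 13.2, 16.6 and 10.5 FPKM across control kidneys 1 to 3, against 68.3, 57.04 and 57.7 FPKM across stone kidneys 1 to 3. Neither gene's groups overlapped, with log2 fold changes of -0.81 for Cyp4a12a and 2.12 for Cyp4a12b (limma, adjusted p = 0.00615 and 7.87e-05). Their sum was 113 ± 19.9 FPKM in control and 117 ± 15.6 FPKM in stone kidneys, so the groups overlapped, while the part of Cyp4a12a in it was 85.03% to 92.1% in control and 46.6% to 49.3% in stone samples. The 2 genes share 35.8% and 36.2% of their 100-base windows, and fragments were divided between them by a quantifier not given in the sources used here.

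In the Cyp4f and Cyp4v subfamilies 4 tested genes rose and 1 fell, beside 43.5% and 13.9% of all tested genes. Cyp4f18, which inactivates leukotriene B4 in myeloid cells, measured 0.35, 0.3 and 0.41 FPKM across control kidneys 1 to 3, against 1.71, 3.36 and 2.16 FPKM across stone kidneys 1 to 3, rising by 1.31 (SE 0.185, limma, adjusted p = 0.00115), and without stone sample 2 it was too low to be tested. Of 8 macrophage markers 7 rose, against 43.5% of all tested genes, while Csf1r did not pass (limma, adjusted p = 0.888). Cyp4f18 and the markers Adgre1, Mrc1 and Itgam averaged under 1 FPKM in controls. They reached the limit for testing only through the stone samples, so that limit itself favored a rise among them. With no filter Cyp4f18 was also called higher (limma, adjusted p = 0.00218). The summed level of all 8 markers was 60.7 to 65.1 FPKM in control and 159 to 294 FPKM in stone samples, with none of them at 0. Their part in the rise of Cyp4f18 was not tested. Cyp4v3, the mouse counterpart of the gene mutated in Bietti crystalline dystrophy of the retina, rose from 2.55 ± 0.1601 to 5.67 ± 0.851 FPKM, and Cyp4f16 from 3.12 ± 0.247 to 6.04 ± 0.978 FPKM (SD, n = 3 each, limma, adjusted p = 0.000631 and 0.0016). Cyp4f17 rose by 0.31, a call that was lost after median-of-ratios scaling, at 0.09, and after quantile normalization, at -0.01. Cyp4f13 fell by 0.27, and equal FPKM sums ended the call (limma, adjusted p = 0.968).

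Members known for foreign compounds and steroids were split evenly. Of 26 such members 10 were tested, 4 rose, 4 fell and 2 did not pass, beside 43.5% higher and 13.9% lower among all tested genes. Cyp2a4 and Cyp2a5 showed the sharpest contrast between near-identical genes. Cyp2a4 (chromosome 7, 26307192 to 26315088) hydroxylates testosterone, and Cyp2a5 (chromosome 7, 26835339 to 26843264) hydroxylates coumarin and nicotine. Their coding sequences differ at 23 of 1485 bases, and the bases 580 to 669 are shown because they hold 5 of these differences, in capitals.
Cyp2a4: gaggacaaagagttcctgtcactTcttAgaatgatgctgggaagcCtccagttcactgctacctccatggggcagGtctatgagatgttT
Cyp2a5: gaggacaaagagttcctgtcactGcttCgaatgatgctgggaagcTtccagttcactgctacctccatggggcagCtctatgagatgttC
The promoters are nearly as alike, at 97.6% over 251 aligned columns. Over the 250 bases before the RefSeq start (GRCm38.p6, plus strand, chr7:26306942-26307191 for Cyp2a4 and chr7:26835089-26835338 for Cyp2a5) the alignment holds 4 substitutions and an offset of 1 base at each end, all in capitals.
Cyp2a4: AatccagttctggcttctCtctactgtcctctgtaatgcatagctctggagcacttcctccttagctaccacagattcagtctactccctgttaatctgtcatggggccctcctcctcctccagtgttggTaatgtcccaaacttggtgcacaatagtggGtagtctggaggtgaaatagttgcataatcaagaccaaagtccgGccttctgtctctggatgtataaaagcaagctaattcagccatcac
Cyp2a5: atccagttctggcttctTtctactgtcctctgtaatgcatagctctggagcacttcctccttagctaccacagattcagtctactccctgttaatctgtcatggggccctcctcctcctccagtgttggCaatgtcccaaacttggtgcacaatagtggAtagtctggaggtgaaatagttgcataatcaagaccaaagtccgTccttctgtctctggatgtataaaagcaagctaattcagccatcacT
Both promoters hold TATAAA, which lies 28 to 23 bases before the start in Cyp2a4 and 29 to 24 in Cyp2a5, and none of the 4 substitutions lies in it.

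Despite this likeness the genes moved apart. Cyp2a4 measured 433, 445 and 480.2 FPKM across control kidneys 1 to 3, against 44.9, 76.1 and 50.7 FPKM across stone kidneys 1 to 3. Cyp2a5 measured 60.8, 90.6 and 109.6 FPKM across control kidneys 1 to 3, against 232, 236 and 194 FPKM across stone kidneys 1 to 3. In control kidneys Cyp2a4 was the more abundant gene in each sample, and in stone kidneys Cyp2a5 was. Cyp2a4 fell by 3.00 on the log2 scale (SE 0.179, limma, adjusted p = 3.7e-05) and Cyp2a5 rose by 1.37 (SE 0.202, limma, adjusted p = 0.00135), and both calls were kept in all 13 alternatives. The part of Cyp2a4 in the sum of both was 81.4% to 87.7% in control and 16.2% to 24.4% in stone samples. That sum went from 539.7 ± 48.3 to 278 ± 33.5 FPKM. Of the 100-base windows of their transcripts, 11.2% of Cyp2a4 and 14.4% of Cyp2a5 also occur in other genes, so most of each transcript can tell them apart at that length, but reads were of a length not given in the sources used here. Among 39 pairs of tested genes of 1 subfamily 14 were called in opposite directions, and among the 6 pairs with at least 90% coding identity 3 were, the third being Cyp4a10 and Cyp4a32. Many of these pairs share a gene. With 14 of the 36 tested members higher and 13 lower, other pairs of members can be opposite as well. The share over all pairs of members was not taken, so these counts do not set genes of 1 subfamily apart.

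**Figure D5:**
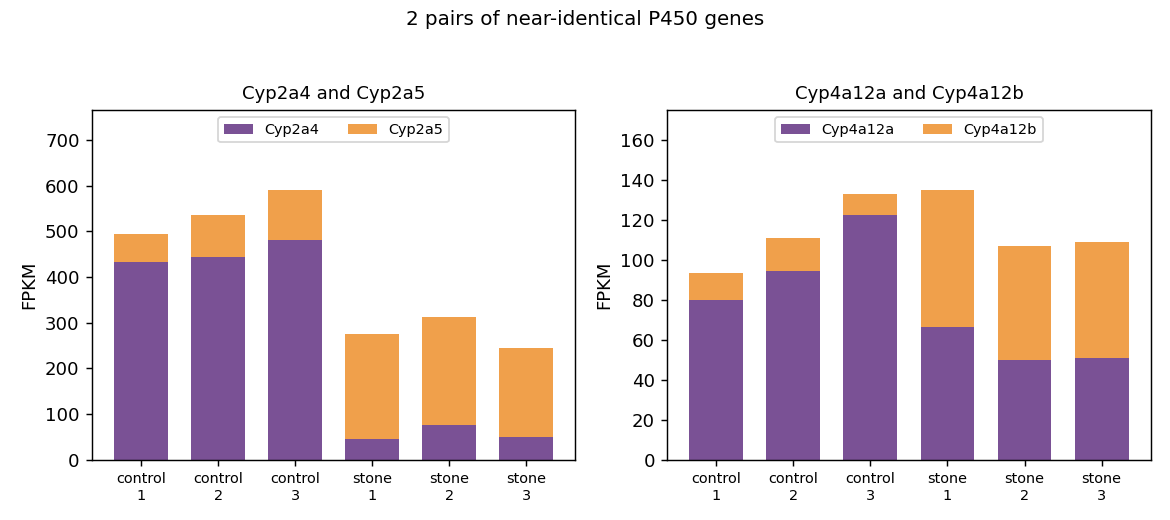
FPKM of Cyp2a4 with Cyp2a5 and of Cyp4a12a with Cyp4a12b, stacked from 0 for each of the 6 samples. In both pairs the first gene holds most of the bar in control samples, and in stone samples Cyp2a5 holds most of its bar while Cyp4a12a and Cyp4a12b hold like parts of theirs.

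The Cyp2d genes on chromosome 15 were split as well. Cyp2d22, thought to be the nearest mouse counterpart of human CYP2D6 in function, measured 4.74, 6.11 and 5.97 FPKM across control kidneys 1 to 3, against 29.9, 29.1 and 26.3 FPKM across stone kidneys 1 to 3, a rise of 2.16 (SE 0.101, limma, adjusted p = 1.6e-05). Cyp2d26 rose from 97.3 ± 20.6 to 195 ± 24.8 FPKM (SD, n = 3 each, limma, adjusted p = 0.00159). Cyp2d12 fell from 71.1 ± 13.3 to 24.1 ± 4.96 FPKM (limma, adjusted p = 0.000442). Cyp2d9, the testosterone hydroxylase that is specific to males in mouse liver, measured 121, 132 and 111 FPKM across control kidneys 1 to 3, against 67.7, 112 and 83.02 FPKM across stone kidneys 1 to 3, and stone sample 2 overlapped the controls. Its call (log2 fold change of -0.50, limma, adjusted p = 0.0395) was lost in 8 of 13 alternatives, among them quantile normalization, equal FPKM sums, no filter and the omission of each single sample except stone sample 2. The 8 Cyp2d genes together stood at 296 ± 42.2 and 335 ± 20.7 FPKM, with overlapping groups.

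Cyp2e1, which oxidizes ethanol and acetone and is raised by testosterone in the mouse kidney, was the most abundant member of this group. It measured 1536, 1855 and 1474 FPKM across control kidneys 1 to 3, against 1145, 963 and 953 FPKM across stone kidneys 1 to 3, and fell by 0.67 on the log2 scale (SE 0.119, limma, adjusted p = 0.00306) with no overlap. Cyp1b1, which acts on estradiol and polycyclic hydrocarbons and is expressed in stromal cells, measured 3.96, 2.64 and 6.17 FPKM across control kidneys 1 to 3, against 12.3, 18.7 and 14.3 FPKM across stone kidneys 1 to 3, and rose by 1.65 (SE 0.251, limma, adjusted p = 0.00155). Markers of fibroblasts and myofibroblasts moved with it, as 6 of 7 rose and their summed level was 35.7 to 46.7 FPKM in control and 109 to 186 FPKM in stone samples, with none at 0. Of 7 endothelial markers 5 rose. These counts stand beside 43.5% higher among all tested genes. The part of these markers in the rise of Cyp1b1 was not tested. Cyp3a13 was at 4.02 ± 0.709 and 4.01 ± 0.214 FPKM and Cyp2f2 at 1.21 ± 0.344 and 1.0 ± 0.241 FPKM, and neither passed as deposited (limma, adjusted p = 0.971 and 0.493), though quantile normalization called both lower, at -0.36 and -0.56.

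Cyp7b1 showed the largest fall of the family. This oxysterol hydroxylase (chromosome 3, 18071944 to 18243890), which also inactivates androgen metabolites and dehydroepiandrosterone, measured 175, 161 and 150.1 FPKM across control kidneys 1 to 3, against 2.73, 18.1 and 11.1 FPKM across stone kidneys 1 to 3. Controls were close together and stone samples spread from 2.73 to 18.1 FPKM, and all lay far below the controls. By the group means it was 15.2-fold lower, with a log2 fold change of -4.10 (SE 0.527, limma, adjusted p = 0.000756). Without stone sample 2 it was 23.5-fold lower by the group means. Leaving out single samples gave log2 fold changes of -4.60 to -3.42. Cyp27a1, the mitochondrial sterol side-chain hydroxylase, stood at 29.3 ± 3.9 and 30.99 ± 1.86 FPKM and Cyp39a1, an oxysterol hydroxylase, at 4.01 ± 0.745 and 3.45 ± 0.118 FPKM, and neither passed as deposited (limma, adjusted p = 0.497 and 0.268). Cyp27a1 was called higher with equal FPKM sums, at 0.36, and Cyp39a1 lower after median-of-ratios scaling and quantile normalization, at -0.36 and -0.53. Cyp46a1, a cholesterol hydroxylase best known in the brain, fell just short of the limit for testing, with a mean of 0.978 FPKM over the 6 samples, and Cyp8b1 was at or near 0.

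Among 7 other members 4 were tested, 2 rose and 2 did not pass, beside 43.5% higher among all tested genes. Cyp2s1, a member of epithelial tissues with few known substrates, measured 9.16, 9.72 and 7.93 FPKM across control kidneys 1 to 3, against 13.9, 17 and 16.7 FPKM across stone kidneys 1 to 3, and rose by 0.76 (limma, adjusted p = 0.000994). Cyp20a1, an orphan enzyme, rose from 8.52 ± 0.843 to 12.8 ± 1.74 FPKM (limma, adjusted p = 0.00623), a call lost after quantile normalization (limma, adjusted p = 0.0568). Cyp2r1, a vitamin D hydroxylase, and Cyp2u1, a fatty acid hydroxylase, did not pass, at 1.21 ± 0.0208 and 1.51 ± 0.225 FPKM and 0.95 ± 0.115 and 1.22 ± 0.245 FPKM. With equal FPKM sums Cyp2r1 was called higher, at 0.34.

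The other 41 members were too low to be tested, and 33 of them stayed under 0.5 FPKM in every sample. They include the 3 retinoic acid hydroxylases and the 3 steroid hormone enzymes of the table, and Cyp2b19 was listed at 0 throughout. Of the 41, 4 reached 1 FPKM in some sample. Cyp4f14, an inactivating enzyme of leukotriene B4, measured 1.13, 1.3 and 1.17 FPKM across control kidneys 1 to 3, against 0.39, 0.35 and 0.41 FPKM across stone kidneys 1 to 3. Cyp26b1, a retinoic acid hydroxylase, measured 0.13, 0.22 and 0.2 FPKM across control kidneys 1 to 3, against 0.38, 0.56 and 1.25 FPKM across stone kidneys 1 to 3, with groups that did not overlap. With no filter Cyp26b1 was not called (limma, adjusted p = 0.0551). Cyp4f15 and Cyp46a1 overlapped between the groups, with highest values of 1.04 and 1.27 FPKM. A further 9 genes (Cyp4a30b, Cyp2t4, Cyp2w1, Cyp21a1, Cyp2d11, Cyp3a11, Cyp3a25, Cyp3a57 and Cyp3a59) were listed at 0 in all controls and 7 (Cyp2c40, Cyp2c39, Cyp2c29, Cyp2c67, Cyp11a1, Cyp2d40 and Cyp1a2) in all stone samples, each with at most 0.1 FPKM elsewhere. With no filter, 40 of these members entered the fit, and 2 were called higher and 4 lower. Of all 17587 genes in that fit 5853 were called higher and 1761 lower. These include the 12319 genes above the limit for testing, and the shares among low genes alone were not taken. Cyp4f14 fell by 0.67 in log2 units (limma, adjusted p = 0.00053), and Cyp2j8, Cyp2b9 and the dioxin-inducible Cyp1a1 also fell. The 2 called higher, the adrenal enzyme gene Cyp21a1 and Cyp2c38, were near 0. Cyp21a1 was at 0.08, 0.04 and 0.08 FPKM across stone kidneys 1 to 3, a log2 fold change of 0.093. Cyp2c38 went from 0.07 ± 0.0608 to 0.277 ± 0.125 FPKM. Levels this low do not show that either gene is active in these kidneys. Of 6 markers of adrenal cortex 4 were tested and 2 rose, beside 43.5% higher among all tested genes. Their summed level was 7.66 to 12.1 FPKM in control and 13.2 to 21.4 FPKM in stone samples. Much of that sum was Scarb1, at 5.75 and 11.5 FPKM on average, while Hsd3b1 and Mc2r stayed under 0.5 FPKM. Star did not pass (limma, adjusted p = 0.236), and the Akr1b7 call was kept in 8 of 13 alternatives. The part of these markers in the values of Cyp21a1 was not tested. Cyp1a1 went from 0.487 ± 0.1002 to 0.257 ± 0.0551 FPKM, and Cyp2j8 from 0.623 ± 0.178 to 0.12 ± 0.0693 FPKM (SD, n = 3 each).

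Genes that supply P450 enzymes with electrons fell or did not pass. Of 11 tested genes in the list of electron donors 4 fell (36.4%, against 13.9% of all tested genes) and 0 rose, with a median log2 fold change of -0.16. The list also holds Pgrmc1 and Pgrmc2, heme-binding partners of P450 enzymes that are not electron donors. Neither passed as deposited (limma, adjusted p = 0.73 and 0.807). Cyb5a, the microsomal cytochrome b5 that assists many P450 reactions, measured 1790.2, 1707 and 1653 FPKM across control kidneys 1 to 3, against 912, 915 and 870.4 FPKM across stone kidneys 1 to 3 and fell by 0.93 (limma, adjusted p = 9.81e-05). Por, the reductase of all microsomal P450 enzymes, measured 207, 215 and 212 FPKM across control kidneys 1 to 3, against 142, 151 and 136 FPKM across stone kidneys 1 to 3 and fell by 0.56 (limma, adjusted p = 0.000357). The mitochondrial chain fell with them, Fdx1 by 0.74 and Fdxr by 0.30 (limma, adjusted p = 0.000177 and 0.00881), and the Fdxr call did not hold with equal FPKM sums (limma, adjusted p = 0.497). Counts for this list depended on scaling, with 8 lower after median-of-ratios scaling and 5 higher with equal FPKM sums.

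Heme synthesis and breakdown moved in both directions. Of 13 tested genes 2 rose (15.4%, against 43.5% of all tested genes), 5 fell (38.5%, against 13.9%) and 6 did not pass, with a median log2 fold change of -0.11. Of the falls, Cpox, Fech and Hmox2 were not called with equal FPKM sums, where Fech and Hmox2 changed sign, and the calls of Fech and Hmox2 were kept in 7 and 10 of 13 alternatives. Alas1, the first and rate-limiting enzyme of heme synthesis outside red cells, measured 83, 76.9 and 76.8 FPKM across control kidneys 1 to 3, against 166, 147 and 149.6 FPKM across stone kidneys 1 to 3 and rose by 0.96 (limma, adjusted p = 7.8e-05). Hmox1, the inducible heme oxygenase, rose by 0.45 (limma, adjusted p = 0.0119), a call lost after median-of-ratios scaling. Uros, a later enzyme of the pathway, fell from 18.98 ± 1.75 to 9.41 ± 0.341 FPKM and Alas2, the form of red cells, from 5.097 ± 1.27 to 1.63 ± 0.348 FPKM (limma, adjusted p = 0.000149 and 0.00122). Lower counts for this list ranged from 2 with equal FPKM sums to 10 after median-of-ratios scaling.

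Among 16 tested nuclear receptors and other regulators of P450 genes 5 rose (31.2%, against 43.5% of all tested genes), 3 fell (18.8%, against 13.9%) and 8 did not pass, with a median log2 fold change of 0.05. Arnt, the partner of the dioxin receptor, rose from 10.03 ± 0.57 to 14.3 ± 0.487 FPKM, and Nr1i2, the pregnane X receptor, from 3.01 ± 0.6501 to 5.56 ± 0.711 FPKM (limma, adjusted p = 0.00123 and 0.00419). The dioxin receptor gene Ahr, the PPAR-alpha gene Ppara and the stress-responsive factor gene Cebpb made up the rest of the rises, by 0.69, 0.49 and 1.02. After quantile normalization the calls of Ahr, Nr1i2 and Ppara were lost (limma, adjusted p = 0.0648, 0.131 and 0.0748), and median-of-ratios scaling ended the Ppara call too (limma, adjusted p = 0.144). Nr1h4, the bile acid receptor, fell from 128 ± 17.7 to 78.3 ± 8.81 FPKM (limma, adjusted p = 0.00295). Nr1h3, an oxysterol receptor, fell by 0.51. Hnf4a, a nuclear receptor of proximal tubule and liver genes, did not pass, at 215 ± 13.8 and 223 ± 20.2 FPKM (limma, adjusted p = 0.602), and with equal FPKM sums it stood at 0.33 (limma, adjusted p = 0.00894).

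Promoters could be looked at for part of the family. The RefSeq promoter table of GRCm38.p6 held a promoter for 60 of the 77 members and for 24 of the 36 tested ones, 8 called higher, 10 called lower and 6 that did not pass. Among the 3 largest falls and 2 largest rises, Cyp2a4, shown above, and Cyp4b1 had an entry. Cyp4b1 is printed because it was the most abundant P450 transcript of control kidneys, over the 250 bases before its start (minus strand, chr4:115647722-115647971), with the single match to TGTTCT, part of a site of steroid receptors, in capitals.
Cyp4b1: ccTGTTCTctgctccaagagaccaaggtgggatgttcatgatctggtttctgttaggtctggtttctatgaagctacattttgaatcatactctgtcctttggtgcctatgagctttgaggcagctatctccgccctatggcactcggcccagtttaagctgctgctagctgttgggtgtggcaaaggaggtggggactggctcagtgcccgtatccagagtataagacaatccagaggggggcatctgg
All motifs were searched on both strands in these 250 bases. A member was counted when any of its promoters held a match, while the percentages are of single promoters, so the 2 are not in the same unit. TATAAA, the TATA box, was found in 5 of the 10 lower members (Cyp2j5, Cyp4a32, Cyp2e1, Cyp2a4 and Cyp2d9), in 2 of the 8 higher members (Cyp2a5 and Cyp2d26), in 0 of the 6 that did not pass, and in 12.4% of 32851 promoters of the table. TGTTCT was found in 2 lower members, 1 higher member and 1 that did not pass, and in 16.1% of all. GCGTG, the core of the dioxin response element, was found in 4 higher members (Cyp4f16, Cyp4v3, Cyp20a1 and Cyp1b1), in 2 lower members, and in 28.2% of all. The direct repeat with a spacer of 1 base, bound by HNF4 and PPAR dimers, was found in Cyp2d9 and in 0.338% of all. A match describes letters in this window and shows no binding.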

How the data were processed

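RNA was measured in whole kidney of 3 control and 3 stone samples. Per the labels' protocols, TRIzol-extracted RNA was fragmented and made into libraries with dUTP in the second strand. The submitters' processing notes name HISAT2 2.0.4 and GRCm38.p6, and the quantifier, annotation, read length and use of strand were details not given in the sources used here. Deposited values are FPKM made by the authors, with 1 column per sample and 0 columns of other samples. Sequencing depth is unknown.

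Values were transformed to log2(FPKM + 1), genes averaging at least 1 FPKM over the 6 samples were kept, and stone was compared with control by limma 3.58.1 in R 4.3.3 (lmFit, eBayes with trend, two-sided, Benjamini-Hochberg adjusted over all 12319 tested genes, threshold 0.05). Fold changes are differences of these log2 values, which understate changes of low genes, and ratios of group means are named as such. Means are given ± SD. Scripts were tested on simulated data. Alternatives were median-of-ratios scaling, quantile normalization, equal FPKM sums with and without Kap, a pseudocount of 0.1, no filter, the replicate block and leaving out each sample.

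Gene positions and promoters came from RefSeq (GRCm38.p6) and transcripts from GENCODE M21, and all 77 members matched RefSeq by symbol. Shared windows are stretches of 100 bases of a member's GENCODE transcript with the longest coding sequence found in a transcript of another gene. Per role, values are given for the most abundant member and the called members with the largest changes in each direction, up to 4, and per related list for up to 2 called genes in each direction with the smallest p. Other genes were chosen after their values were seen. Members and lists were chosen with earlier results of these data known. Results for some regulators and motifs are not reported here.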

Additional observations from a re-analysis of the deposited data

How the results depend on the processing

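Of 27 called members 21 kept their call and direction in each of the 13 alternatives in which they were tested, and 0 were called in the other direction in any of these. The exceptions are given in the report: Cyp2j9, Cyp4a10, Cyp4f13, Cyp4f17, Cyp20a1 and Cyp2d9. Called members numbered 14 higher and 13 lower as deposited, and when single samples were left out 12 to 14 and 11 to 13. Without control sample 2 and stone sample 3 together, an alternative chosen after seeing the data, they numbered 12 and 11, with Cyp2j9, Cyp4f17, Cyp20a1 and Cyp2d9 lost. With no filter 16 and 16 of 76 members in the fit were called, beside 5853 and 1761 of all 17587 genes. Scaling moved the calls over all tested genes, from 5356 higher and 1711 lower to 2748 and 3224 after median-of-ratios scaling, 2744 and 3138 after quantile normalization and 8467 and 792 with equal FPKM sums, and leaving out 1 sample, or both samples with fat cell markers, gave 3593 to 5269 and 1258 to 1686, or 4851 to 6955 in all. In the list of electron donors 1 gene was higher after quantile normalization, 5 were higher with equal FPKM sums and 8 were lower after median-of-ratios scaling. Leaving out single samples gave 0 to 1 higher and 4 to 5 lower. Heme genes numbered 1 higher and 10 lower after median-of-ratios scaling, 8 lower after quantile normalization, 5 higher and 2 lower with equal FPKM sums, 3 lower with the replicate block and 2 to 3 higher and 3 to 5 lower with samples left out. Of the regulators 2 were higher after quantile normalization, 10 with equal FPKM sums, 5 lower after median-of-ratios scaling, and 4 to 6 higher and 3 to 4 lower with samples left out. The cause was not tested.

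Among called genes Cyp4f17, Fech and Hmox2 changed sign, the last 2 to 0.04 and 0.082 with equal FPKM sums, and the other reversals concerned genes that did not pass. After median-of-ratios scaling the log2 fold changes were Cyp4a31 -0.20, Cyp27a1 -0.16, Cyp3a13 -0.20 and Hnf4a -0.20. After quantile normalization the log2 fold changes were Cyp4f17 -0.011, Cyp2r1 -0.20, Cyp2u1 -0.22, Cyp27a1 -0.077 and Cyp3a13 -0.36. With equal FPKM sums the log2 fold changes were Cyp2j6 0.19, Cyp2c69 0.082, Cyp39a1 0.057 and Cyp2f2 0.0042. With equal FPKM sums outside Kap the log2 fold change was Cyp3a13 -0.024. Leaving out 1 sample, or control sample 2 with stone sample 3, gave Cyp2c69 -0.13 to 0.019, Cyp4a31 -0.038 to 0.22, Cyp27a1 -0.014 to 0.17, Cyp3a13 -0.10 to 0.11 and Hnf4a -0.011 to 0.12. Cyp4f18 (without stone sample 2) and Cyp2c69 (without control sample 3 or stone sample 1) were then too low to be tested.

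Control and stone samples share replicate numbers in the labels. Deviations from the group means correlated at 0.0075, -0.22 and -0.04 for samples 1, 2 and 3, and no control sample correlated best with the stone sample of its own number. These values gave no sign of pairing by number. Deviations within a group of 3 depend on each other, so this check cannot settle whether the samples are paired. With the replicate block 14 members were higher and 13 lower and all 27 calls were kept, and 6378 genes were called in all, beside 7067 without the block. FPKM carry no counts, so what depth limits cannot be given, and with 3 samples a group an exact permutation test of 1 gene cannot go below p = 0.1.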
